A study of Mus musculus with 2 samples.

Results

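Mtor, Tsc1, Tsc2, Rheb, Rptor, Rictor, Akt1 and Akt2 code for the core of the mTOR and PI3K signalling pathway, and their RNA was measured by sequencing of polyadenylated RNA from whole brains of C57BL/6J mouse embryos aged 14.5 days. The 8 genes were taken by symbol, matched through their Ensembl identifiers, from 43346 annotated genes, and all 8 were found. The rule itself used no measured value, but earlier results of these data were known when the genes were chosen. Both libraries, numbered as biological replicates 1 and 2, belong to a single group for which the labels give no treatment and no engineered allele, so no contrast between conditions exists. The labels describe littermates of both sexes without saying which animals gave which library. Biological and technical differences between the libraries therefore cannot be told apart.

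PI3K at the membrane makes a lipid that recruits and activates the AKT kinases. AKT inhibits the TSC complex of Tsc1 and Tsc2, which otherwise turns the small GTPase Rheb off, and active Rheb stimulates the kinase mTOR in complex 1, where Rptor presents substrates such as S6 kinase and 4E-BP. Rictor defines complex 2, which in turn phosphorylates AKT. In the developing brain the pathway is known for its control of cell size and growth, and loss of TSC1 or TSC2 in humans causes tuberous sclerosis.

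All 8 genes were expressed at 13.3 TPM or more in both libraries, and Akt1 stood far above the others. TPM is a level per unit of transcript length, scaled within each library, so it can be compared between genes. Each was at 1 TPM or more in both libraries, as were 62.2% of 21474 protein-coding genes. The median level of the 8 genes was 38.0 in replicate 1 and 40.2 TPM in replicate 2, against 5.41 and 5.93 TPM over all protein-coding genes. In bulk tissue, fewer expressing cells and less RNA per cell cannot be told apart.

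Among the kinases that receive the PI3K signal, Akt1 (chr12:112653821-112674884 in mm10, minus strand) was at 251.7 in replicate 1 and 243.2 TPM in replicate 2. These values rested on 38677 and 33999 expected counts, and the level was above that of 97.8% of protein-coding genes. Akt2 (chr7:27591552-27640826, plus strand), the isoform best known for insulin-stimulated glucose uptake, was at 65.4 in replicate 1 and 56.4 TPM in replicate 2. The log2 ratio of Akt1 over Akt2 was 2.03 ± 0.11 (SD, n = 2 libraries), a 4.07-fold difference. Akt1 was thus the higher of both in each library, by more than the spread between them.

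Downstream of AKT stand Rheb and its negative regulators. Tsc2 (chr17:24595816-24632630, minus strand), the subunit that makes Rheb hydrolyse its GTP, was at 46.3 in replicate 1 and 49.1 TPM in replicate 2. Tsc1 (chr2:28641228-28691167, plus strand), its stabilising partner, was at 29.7 in replicate 1 and 30.9 TPM in replicate 2. The 2 subunits kept a nearly constant ratio, with a log2 ratio of Tsc2 over Tsc1 of 0.64 in replicate 1 and 0.67 in replicate 2. Tbc1d7, the third TSC subunit, was at 28.7 in replicate 1 and 28.6 TPM in replicate 2. Rheb itself (chr5:24802823-24842624, minus strand) was at 73.2 in replicate 1 and 60.6 TPM in replicate 2. Its paralog Rhebl1 was at 29.4 in replicate 1 and 15.9 TPM in replicate 2. The log2 ratio of Rheb over Rhebl1 averaged 1.62 ± 0.44 (SD, n = 2 libraries), and Rheb gave 71.3% of their summed TPM in replicate 1 and 79.3% in replicate 2.

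The kinase and its scaffolds had the lowest mean levels of the 8. Mtor (chr4:148448611-148557683, plus strand) was at 22.3 in replicate 1 and 31.3 TPM in replicate 2. Rptor (chr11:119602905-119899576, plus strand), the scaffold of complex 1, was at 19.4 in replicate 1 and 26.2 TPM in replicate 2. Rictor (chr15:6708379-6800401, plus strand), the scaffold of complex 2, was at 13.3 in replicate 1 and 14.2 TPM in replicate 2. Mtor and Rptor were both higher in replicate 2, whereas Rictor differed little. Rptor over Rictor gave a log2 ratio of 0.54 in replicate 1 and 0.88 in replicate 2, and Rheb over Mtor 1.71 and 0.95.

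**Figure D1:**
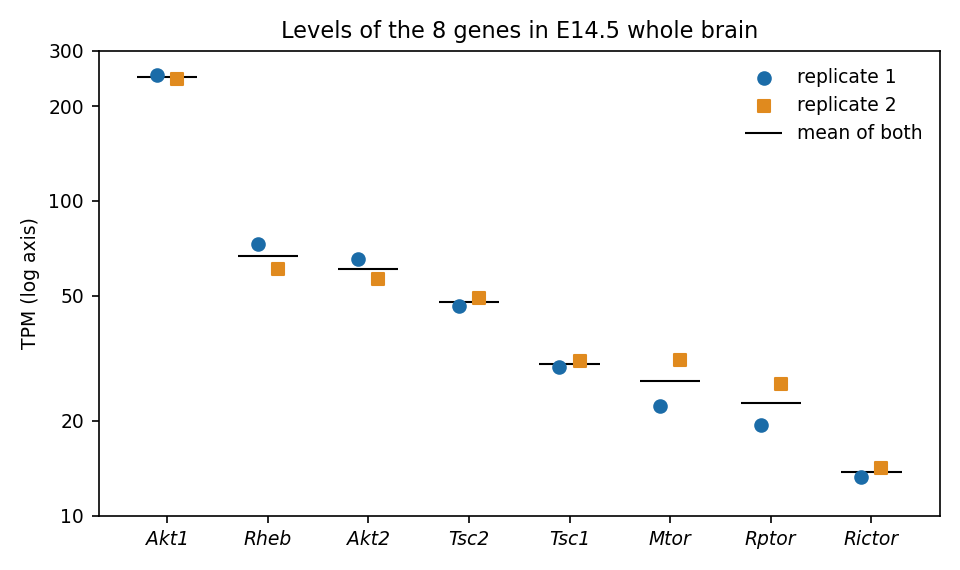
Level in TPM (log axis) of each of the 8 genes in replicate 1 (circles) and replicate 2 (squares), ordered by the mean, which a bar marks. Akt1 lies near 247 TPM and the other 7 genes between 13.3 and 73.2 TPM, with the widest relative gaps between libraries for Mtor and Rptor.

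Ordered by mean TPM, the genes ran Akt1 (247 ± 5.96), Rheb (66.9 ± 8.89), Akt2 (60.9 ± 6.31), Tsc2 (47.7 ± 1.96), Tsc1 (30.3 ± 0.884), Mtor (26.8 ± 6.39), Rptor (22.8 ± 4.79) and Rictor (13.8 ± 0.658; SD, n = 2 libraries each). Neighbours were called apart where their log2 ratio had the same sign in both libraries and a mean above its SD. By this rule 6 of the 7 neighbours were apart. Tsc1 and Mtor were not, with a log2 ratio of 0.41 in replicate 1 and -0.02 in replicate 2. Rheb and Akt2 were separated by only 0.13 ± 0.04 on the log2 scale. Of 10 gene pairs examined, 4 exceeded a 2-fold mean ratio that was also above its SD, among them Akt1 over Akt2, Rheb over Mtor and Rheb over Rhebl1. Rheb over Mtor did not pass 2-fold in replicate 2 alone, nor in the mm9 RPKM values (log2 ratio 0.61). Mtor over Rictor, at 0.94 in the TPM mean, did pass it in replicate 2 alone (1.14) and in mm9 RPKM (1.18). These orders are described without a test, as only 2 libraries were measured. In the deposited mm9 RPKM values, Tsc1 (mean 5.65) stood above Akt2 (5.26) and Tsc2 (5.06), and the neighbours apart numbered 5. Neither Tsc1 over Akt2 (log2 ratio 0.12 ± 0.17) nor Akt2 over Tsc2 (0.04 ± 0.23; SD, n = 2 columns each) was apart there.

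Each of the 8 genes differed by less than 1.5-fold between the libraries, against a background in which 15.9% of 15240 genes with a mean of at least 1 TPM were 1.5-fold or more apart. The log2 ratio of TPM + 1, replicate 1 over replicate 2, was -0.47 for Mtor and -0.41 for Rptor, both higher in replicate 2 by 1.39-fold and 1.33-fold. For Rheb it was 0.27 and for Akt2 0.21, and for Akt1, Tsc1, Tsc2 and Rictor it lay between -0.09 and 0.05. The 95% counting intervals were computed without the pseudocount of 1. They ran from -0.53 to -0.45 for Mtor and from 0.22 to 0.32 for Rheb. These intervals cover counting error of the gene totals only, which was small beside these differences. They leave out the division of reads among transcripts. The deposited TPM bounds for Mtor were 20.8 to 23.7 in replicate 1 and 29.2 to 33.1 in replicate 2. The short transcript Mtor-204 was at 1.91 in replicate 1 and 5.49 TPM in replicate 2, on 49.6 and 130.8 expected counts. Mtor-202 was at 19.3 and 24.7 TPM. The median over the 8 genes was -0.07, and over all 15240 genes -0.01.

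Transcript length moved with the difference between the libraries. With the genes in 5 bins of equal size by effective length, the median log2 ratio was 0.21 in the shortest bin (median 663 nt) and -0.25 in the longest (median 5041 nt). Mtor has an effective length of 7288 nt in replicate 1 and 6689 nt in replicate 2. After a polynomial trend on length was removed, Mtor was at -0.09, Rptor at -0.15, Tsc2 at 0.21, Tsc1 at 0.29 and Rictor at 0.44. The signs of Tsc1, Tsc2 and Rictor turned from slightly below 0 to above 0, and no member reached 1.5-fold (background 12.8%). The median of the 8 genes then was 0.21, against 0.03 over all genes. With TMM-normalised counts in place of TPM, Mtor was at -0.30, Rptor at -0.32, Rheb at 0.31 and Akt2 at 0.27. The directions of Mtor, Rptor, Rheb and Akt2 were the same on all 3 scales, which share the mm10 quantification. The mm9 RPKM values, in 2 columns that the labels do not tie to replicates 1 and 2, grouped them otherwise. There Mtor (4.24 and 4.74), Rheb (5.79 and 8.07) and Akt2 (4.45 and 6.07) were lower in the first column. Rptor (3.10 and 2.63) was higher in it, so Mtor moved with Rheb and Akt2 and against Rptor. Akt1, at 0.05 as deposited, was at -0.02 when TPM was rescaled without mitochondrial and spike-in entries.

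**Figure D2:**
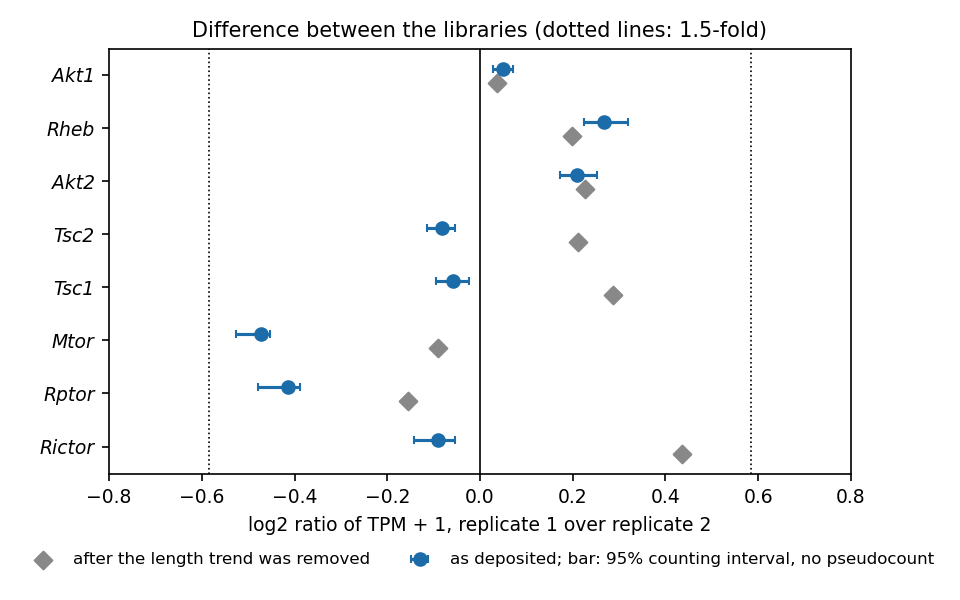
Difference between the libraries for each gene as a log2 ratio of TPM + 1, replicate 1 over replicate 2, as deposited (circles; bars are 95% counting intervals without the pseudocount) and after the length trend was removed (diamonds). Mtor and Rptor lie at -0.47 and -0.41 before and at -0.09 and -0.15 after, and Rictor moves to 0.44; dotted lines mark 1.5-fold.

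The libraries also differed in regional and cell cycle markers. The 8 forebrain markers summed to 591 in replicate 1 and 269 TPM in replicate 2 (8 of 8 higher in replicate 1). The 10 hindbrain markers summed to 25.6 TPM and 172 TPM (10 of 10 lower in replicate 1), and the 10 cell cycle markers to 819 TPM and 430 TPM (10 of 10 higher in replicate 1). All 6 neuron markers and all 6 neural progenitor markers were at 1 TPM or more in both libraries, with sums of 4045 and 4218 TPM (5 of 6 neuron markers lower in replicate 1) and of 2045 and 1859 TPM (4 of 6 progenitor markers higher in replicate 1). The 6 liver markers summed to 4.30 and 4.12 TPM, with Serpina1a at 0 in replicate 1, and the 6 red blood cell markers to 2806 and 3483 TPM (6 of 6 lower in replicate 1). The 6 bone and cartilage markers summed to 102 in replicate 1 and 217 TPM in replicate 2 (4 of 6 lower in replicate 1). Their part in the differences of Mtor, Rptor, Rheb and Akt2 was not tested. Annotated genes held 103493289 expected counts in replicate 1 and 97539730 in replicate 2, and the 8 genes took 0.113% and 0.111% of them.

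Around these 8 genes the rest of the pathway was broadly expressed. Of 101 other pathway genes in 18 lists, 93 were at 1 TPM or more in both libraries (background 62.2% of protein-coding genes), with a median of 19.2 in replicate 1 and 23.0 TPM in replicate 2. Of the mTOR complex subunits, Akt1s1, the AKT substrate PRAS40 that inhibits complex 1, was at 134 in replicate 1 and 109 TPM in replicate 2. Mapkap1, the Sin1 subunit of complex 2, was at 61.8 in replicate 1 and 55.0 TPM in replicate 2, and Mlst8, shared by both complexes, at 27.3 and 23.7 TPM. Akt1s1 and Mapkap1 were thus above the scaffolds Rptor and Rictor of their complexes in both libraries. Deptor, an inhibitor of both complexes, was below 1 TPM, at 0.44 in replicate 1 and 0.67 TPM in replicate 2.

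Upstream of AKT, the highest class I PI3K catalytic subunit was Pik3ca, at 18.2 in replicate 1 and 21.0 TPM in replicate 2. Pik3cg, known from leukocytes, was at 0.76 and 1.07 TPM. The regulatory subunit Pik3r2 was at 133 in replicate 1 and 114 TPM in replicate 2, and Pik3c3, the class III kinase of autophagy, at 31.7 and 30.5 TPM. Inpp5e, the highest of the phosphatase list, was at 37.1 in replicate 1 and 29.9 TPM in replicate 2. The growth factor Igf2 was at 194 in replicate 1 and 348 TPM in replicate 2, while Ins1 was listed at 0 in both. Igf1r, its receptor, was at 13.2 in replicate 1 and 22.1 TPM in replicate 2.

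Downstream and beside mTOR, the cap-binding protein Eif4e was at 100 in replicate 1 and 81.3 TPM in replicate 2, and the AKT substrate Gsk3a at 210 and 162 TPM. Lamtor1, the Ragulator subunit that anchors the Rag GTPases to the lysosome, was at 161 in replicate 1 and 126 TPM in replicate 2. Sec13, a GATOR2 subunit also found in the nuclear pore and COPII coat, was at 220 in replicate 1 and 138 TPM in replicate 2. In the other lists, Nprl3 of the inhibitory GATOR1 complex was at 96.4 and 63.9 TPM, Flcn at 48.7 and 35.1 TPM, Stk11, which activates AMPK, at 99.0 and 79.7 TPM, and Ddit4, a stress inhibitor of complex 1, at 65.6 and 45.3 TPM.

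Between the libraries, 13 of these 93 genes were 1.5-fold or more apart. The 5 that were higher in replicate 1 were Rhebl1, Nprl2, Nprl3, Sec13 and Rps6kb2, the second S6 kinase gene (background 6.42%). The 8 that were lower in replicate 1 included Pik3r1, Igf2, Gsk3b, Igf1r, Irs2, Castor2 and Igf1 (background 9.46%). None was 2-fold apart on the log2(TPM + 1) scale (background 3.52%). Pik3r1, a regulatory subunit of PI3K, was at 14.7 in replicate 1 and 30.2 TPM in replicate 2. On that scale its log2 ratio was -0.99, and without the pseudocount Pik3r1 was 2.06-fold higher in replicate 2, the 1 gene of the 93 past 2-fold. All 5 insulin and IGF receptors and adaptors were lower in replicate 1, as were 51% of all genes, with a median log2 ratio of -0.41, and after the length trend was removed the median was -0.03. Of the 10 Rag and Ragulator genes, 9 were higher in replicate 1, as were 48.8% of all genes, with a median of 0.20, and of 0.19 without the trend. After the trend was removed, 5 of the 93 genes were 1.5-fold or more apart (background 12.8%), 2 higher (background 5.51%) and 3 lower in replicate 1 (7.34%).

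**Figure D3:**
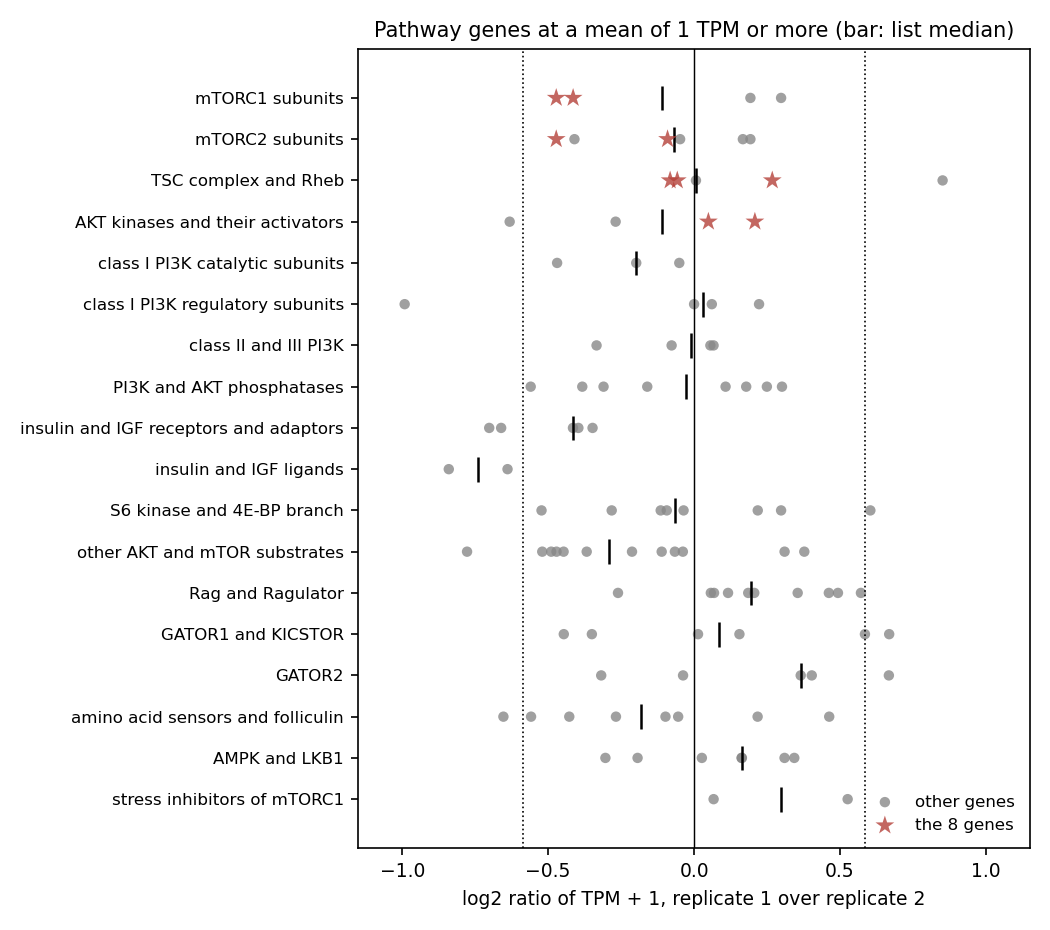
Log2 ratio of TPM + 1, replicate 1 over replicate 2, of each pathway gene with a mean of at least 1 TPM, by list; stars are the 8 genes, circles other genes, bars list medians and dotted lines 1.5-fold. Of the 10 Rag and Ragulator genes 9 lie above 0, and all 5 insulin and IGF receptors and adaptors lie below 0.

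The pathway gene nearest to a member in log2(TPM + 1) over the 2 libraries was found among 108 candidates. For Tsc1 this was Pik3c3, at a distance of 0.0952, for Tsc2 Rragc (0.113) and for Rheb Lamtor5 (0.162). For Rptor it was Pdcd4 (0.147), for Rictor Prkab2 (0.103) and for Akt2 Mapkap1 (0.0874). Akt1 had no close neighbour, as Igf2, the nearest, lay 0.636 away. With only 2 libraries these distances describe similar levels.

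The next question was which transcripts carried these levels. Protein-coding transcripts held 89.9% (replicate 1) and 88.8% (replicate 2) of the summed TPM of the 8 genes. Tsc2 and Rictor, each with a single listed transcript of coding type, entered this share at a fixed 100%. The leading transcript was the same in both libraries for 5 of the 6 genes with 2 or more transcripts in the tables (background 91.8% of 7184 genes). The transcript values are the authors' estimates, which divide reads that fit several transcripts.

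In the mm10 estimates, a single coding transcript dominated Rheb, Akt1 and Mtor. Rheb-201 held 97.1% of the Rheb TPM in replicate 1 and 96.5% in replicate 2, and Akt1-201 held 88.2% and 89.4% of Akt1. Mtor-202, which codes for the full kinase, held 86.4% of the Mtor TPM in replicate 1 and 78.8% in replicate 2. Mtor-204, a retained-intron transcript of 598 nt, held 8.57% of it in replicate 1 and 17.5% in replicate 2, but rested on 49.6 and 130.8 expected counts. Coding transcripts took 99.4% and 98.7% of the Mtor counts. In the authors' mm9 transcript values, Mtor-202 held less, 54.6% of the Mtor RPKM in the first column and 41.8% in the second. Mtor-204 held 29.6% and 27.6% there, and Mtor-201 14.2% and 29.1%. Rheb-201 (94.4% and 95.6%) and Akt1-201 (86.5% and 90.6%) dominated in those values too. The tables used here listed a single transcript each for Tsc2 (Tsc2-201) and Rictor (Rictor-201), so neither gene's estimates can show alternative forms.

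In the mm10 estimates, Tsc1 was divided among 3 long coding transcripts. Tsc1-204 held 35.4% of its TPM in replicate 1 and 27.6% in replicate 2, Tsc1-202 26.3% and 27.7%, and Tsc1-201 22.4% and 24.9%. Tsc1-204 led in replicate 1 and Tsc1-202, by 27.7% to 27.6%, in replicate 2. Akt2 was divided as well, with Akt2-201 at 49.3% in replicate 1 and 51.5% in replicate 2, Akt2-214 at 22.8% and 19.1%, and Akt2-205 at 11.7% and 12.3%. In the mm9 values, Akt2-201 held 26.0% of the Akt2 RPKM in the first column and 10.7% in the second. A model not listed on mm10 held 46.4% and 54.2% there.

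In Rptor the leading transcript was of a non-coding type. Rptor-211, annotated as a target of nonsense-mediated decay, held 60.0% of the Rptor TPM in replicate 1 and 57.4% in replicate 2. The full-length coding transcript Rptor-201 held 24.1% and 22.3%. Among protein-coding genes averaging 10 TPM or more that have 2 or more transcripts, 7.38% had a leading transcript of a non-coding type in both libraries.

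**Figure D4:**
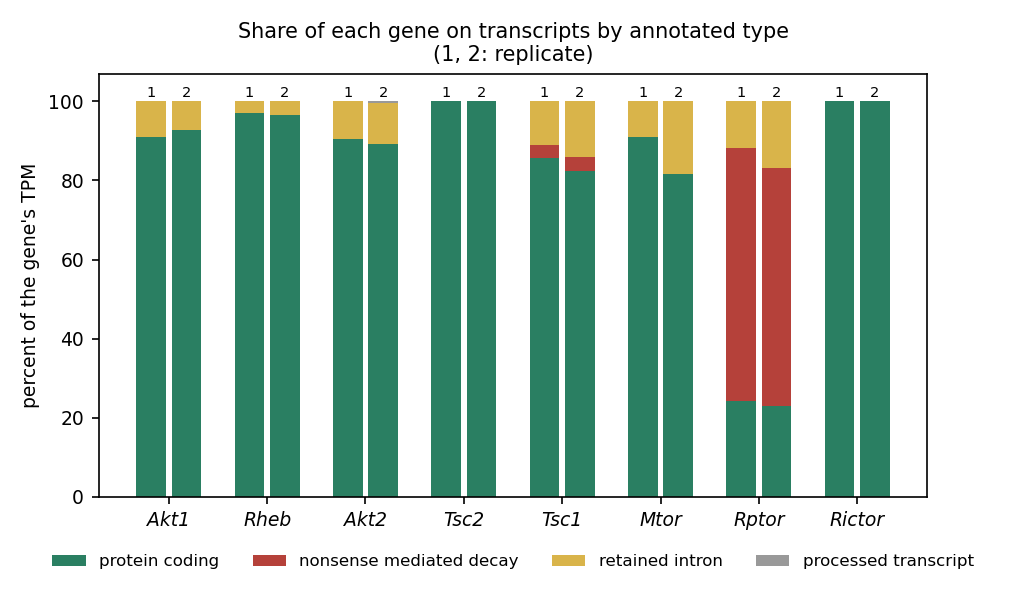
Percent of each gene's TPM on transcripts of each annotated type, with replicate 1 and replicate 2 as paired bars in each gene. Coding transcripts make up 24.1% and 22.9% of Rptor, against 81.6% or more in each of the other 7 genes. For Tsc2 and Rictor, with a single listed transcript each, the share of 100% was fixed in advance. For Rptor, the junction reads differed from these estimates.

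Junction reads, which span an exon boundary, were used to see the splice choices directly. The deposited junctions are on mm9 and give reads in 2 columns that the labels do not tie to replicates 1 and 2, so they are called the first and second read column. Of 272 annotated introns of the 8 genes, 246 had at least 1 junction read (background 90.4%). These introns held 183092 reads, and junctions absent from the annotation added 2716 reads, 1.46% of the total. Among splice sites with 100 or more reads, 15 of 416 (3.61%) joined a second partner in 5% or more of the reads in both columns, against 7.33% of 212945 such sites in all genes. At 10% or more there were 8, against a background of 4.83%. These rules were chosen after the data were seen. Tsc2 held 9 of the 15, from 82 sites (11.0%), Tsc1 and Rictor 2 each, and Mtor and Akt1 1 each, while Rheb, Rptor and Akt2 had none. Donor and acceptor sites are counted separately, so a single splice choice can count more than once. In Tsc2 this holds for the 129-nt and the 69-nt exon described next.

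The exon choices with the most reads on both forms were in Tsc2. The exons concerned are printed because the junction counts turn on them, from GENCODE vM21 transcripts on mm10, with the exon in capitals and 15 bases of the neighbouring exons in lower case. The first is a coding exon of 129 nt, or 43 codons, at chr17:24606224-24606352, minus strand, and the second a coding exon of 69 nt, or 23 codons, at chr17:24601389-24601457, minus strand. Both are whole numbers of codons, so skipping keeps the reading frame.
Tsc2 129-nt exon: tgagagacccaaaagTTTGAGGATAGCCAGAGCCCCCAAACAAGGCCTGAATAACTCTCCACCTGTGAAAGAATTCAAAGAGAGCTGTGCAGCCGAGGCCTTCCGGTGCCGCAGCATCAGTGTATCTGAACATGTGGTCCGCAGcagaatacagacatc
Tsc2 69-nt exon: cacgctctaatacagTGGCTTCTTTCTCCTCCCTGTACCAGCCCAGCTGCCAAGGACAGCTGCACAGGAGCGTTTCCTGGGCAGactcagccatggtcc

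The 129-nt exon was mostly included. Its upstream junction had 152 reads in the first column and 186 in the second, its downstream junctions 128 and 163, and the junctions that skip it 46 and 58. Inclusion, the mean of the 2 flanking junctions over that mean plus the skipping reads, was 75.3% in the first column and 75.1% in the second. From the upstream junction alone it was 76.8% (95% exact binomial interval 70.3 to 82.5) and 76.2% (70.4 to 81.4). Tsc2-201, the only Tsc2 transcript in the mm10 tables, lacks this exon, so the level given above was estimated on a form that most of these junction reads did not match.

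The 69-nt exon was mostly skipped. Its upstream junction had 40 and 48 reads and its downstream junction 52 and 68, against 410 and 370 skipping reads. Inclusion was 10.1% in the first column and 13.6% in the second. In the authors' mm9 transcript values, a Tsc2 model that includes the 129-nt exon and skips the 69-nt exon held 51.9% of the Tsc2 RPKM in the first column and 62.9% in the second, and Tsc2-201 35.7% and 26.0%.

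Finer choices of 3 nt occurred at 2 acceptor sites of Tsc2, where a CAG triplet at the exon start was kept or left out. The triplets are shown in capitals, with the last 15 bases of the upstream exon before and the following 15 bases of the exon after them, from GENCODE vM21 on mm10. The first lies at chr17:24604990-24604992, at the start of the exon that follows the 129-nt exon, and is shown as joined in the form that skips the 129-nt exon. The second lies at chr17:24628106-24628108. Both are on the minus strand, and each adds 1 codon.
Tsc2 acceptor, form that skips the 129-nt exon: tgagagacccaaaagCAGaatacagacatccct
Tsc2 upstream acceptor: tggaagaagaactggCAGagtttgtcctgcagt

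At the acceptor that follows the 129-nt exon, use of the triplet differed with the exon. Where the exon was joined, 30 reads left the triplet out and 97 kept it in the first column, 23.6% left out (95% exact binomial interval 16.5 to 32.0). In the second column these were 37 and 126 reads, or 22.7% (16.5 to 29.9). Where the exon was skipped, 24 reads left the triplet out and 22 kept it in the first column, 52.2% left out (37.0 to 67.1), and 32 and 26 reads in the second, 55.2% (41.5 to 68.3). The intervals did not overlap in either column, and they cover counting error only. This comparison was chosen after its values were seen. At the other acceptor the triplet was kept in 165 and 180 reads and left out in 39 and 54, and the form without it was not among the annotated mm9 introns.

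In Tsc1, the choice that separates Tsc1-202 from the other long forms was a 15-nt stretch, 5 codons long, at an exon start (chr2:28678952-28678966, plus strand). It is shown in capitals between 15 bases of the upstream exon and 15 bases of the rest of its own exon, from GENCODE vM21 on mm10.
Tsc1 15-nt stretch: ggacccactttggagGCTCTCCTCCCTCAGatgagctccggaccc
The stretch was kept in 123 and 106 junction reads, 72.4% and 71.1%, and left out in 47 and 43. The share left out was thus 27.6% and 28.9% of the junction reads. The estimated TPM share of Tsc1-202 was 26.3% in replicate 1 and 27.7% in replicate 2. That TPM share also counts transcripts not annotated at this splice site, so it is unlike the read share. In the authors' mm9 transcript values, Tsc1-202 held far less, 1.70% of the Tsc1 RPKM in the first column and 1.16% in the second. Tsc1 also used several first exons. Into the same second exon, 67 and 66 reads came from the first exon of Tsc1-202, 52 and 41 from that of Tsc1-201, and 38 and 28 from a donor site outside the mm9 annotation.

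For Rptor, the junction reads and the transcript estimates differed. Rptor-211 lacks an exon of 76 nt that Rptor-201 contains, and 76 nt is 1 base more than a whole number of codons, so skipping shifts the reading frame. The exon lies at chr11:119811945-119812020, plus strand, and is shown in capitals between 15 bases of each neighbouring exon, from GENCODE vM21 on mm10.
Rptor 76-nt exon: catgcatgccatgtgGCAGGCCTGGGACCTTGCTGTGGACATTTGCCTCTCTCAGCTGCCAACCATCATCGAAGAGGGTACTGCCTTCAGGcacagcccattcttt
Its upstream junction had 79 and 74 reads and its downstream junction 73 and 108, while 3 and 1 reads skipped it. Inclusion was 96.2% in the first column and 98.9% in the second, with a lower bound of 89.7% and 92.8% from the upstream junction alone. The decay-annotated Rptor-211 was nevertheless estimated at 60.0% and 57.4% of the gene. The share of Rptor on coding transcripts is therefore uncertain, and the cause of the disagreement was not tested.

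Akt2 showed a like gap at its first intron. Of 317 and 265 junction reads that ended at the acceptor of the first shared exon, 269 and 228 came from the first exon of Akt2-205 and Akt2-214, which is 84.9% and 86.0%. The first intron of Akt2-201, shared with the short Akt2-212, had 10 and 15 reads, 3.15% and 5.66%, although Akt2-201 was estimated at 49.3% and 51.5% of the Akt2 TPM. In Akt1 the first intron of Akt1-201, shared with the short Akt1-204, took 442 and 341 reads, 86.3% and 83.0% of those at its acceptor. Akt1-201 was estimated at 88.2% and 89.4% of the Akt1 TPM. In Akt1 and Akt2 alike, the TPM share also counts transcripts not annotated at that acceptor, so it is unlike the read share.

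**Figure D5:**
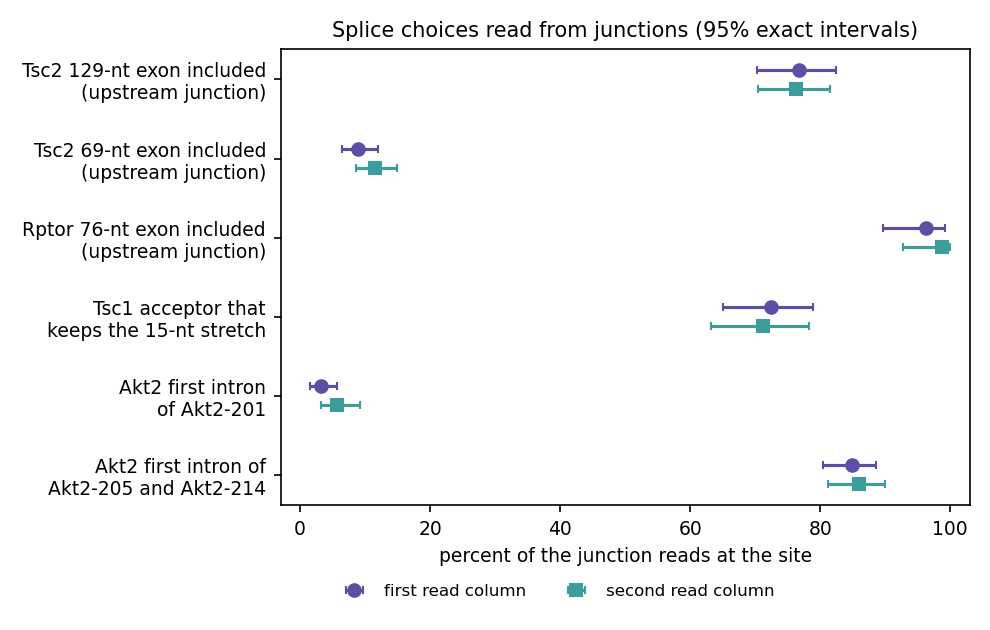
Percent of junction reads for 6 splice choices in the first (circles) and second (squares) read column, with 95% exact binomial intervals. The 129-nt exon of Tsc2 is included in about 76% of reads at its upstream junction, the 76-nt exon of Rptor in over 96%, and the first intron of Akt2-201 holds 3.15% and 5.66% of reads.

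In Mtor and Rictor, no choice between annotated junctions passed these thresholds. In each, an annotated intron had 0 reads, while a junction with both ends shifted by 2 nt and without a canonical splice motif held 84 and 101 reads in Mtor and 59 and 55 in Rictor. The annotated coordinates and the aligned ones therefore differ there. The highest unannotated junction had 13 and 12 reads in Rheb, 9 and 3 in Rptor, 35 and 13 in Akt1 and 9 and 2 in Akt2. Genes that overlap the members could add reads only in places. Pkd1, on the opposite strand, shares 693 exonic bases with the end of Tsc2 and was at 20.8 in replicate 1 and 23.7 TPM in replicate 2. The antisense gene Rptoros shares 84 exonic bases with Rptor and was at 0.02 TPM in both libraries. Angptl7 inside Mtor, on the opposite strand, and the small RNA gene Gm25363 inside Rheb share no exonic base with them. The libraries were stranded per the labels, but whether the counting used strand is not stated there.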

How the data were processed

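The 2 libraries were analysed from processed tables. Expected counts, TPM and FPKM per gene and transcript, and the percent of each transcript in its gene, were deposited by the authors using mm10 and GENCODE M4, as text notes among the files state. No tool is named there. Deposited TPM is scaled over all entries, spike-in and mitochondrial ones included. RPKM on mm9 with Ensembl 65 and junction read counts, with a reproducibility fraction for which low is reproducible, were also deposited by the authors. Libraries were stranded 101-nt pairs, per the labels. Symbols came from GENCODE vM21.

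Ratios between libraries are log2(TPM + 1) at a mean of 1 TPM or more, described without a test, and understate differences of low genes. The length trend is a polynomial of degree 3 in log10 effective length. edgeR 4.0.16 (TMM) and DESeq2 1.42.0 gave alternative scalings on expected counts rounded to whole numbers, for genes with a summed count of 10 or more. Intervals are Clopper-Pearson at 95%. Python 3.11.15, pandas 2.3.3, scipy 1.17.1 and R 4.3.3 were used. Steps were tested on simulated data. A count of 3 equals 2.90e-06% of annotated counts in replicate 1 and 3.08e-06% in replicate 2.

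The members, lists and pairs were chosen with earlier results of these data known. Named were the members, Rhebl1, the highest gene of each list, genes 2-fold apart, the nearest gene to each member, transcripts at 10% or more, overlapping genes and the highest unannotated junctions. Other genes were named after their values were seen: Tbc1d7, Mlst8, Deptor, Pik3cg, Ins1 and those past 1.5-fold. Values of some single genes are counted in the lists and pairs but not named.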

Additional observations from a re-analysis of the deposited data

How the results depend on the processing

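No paired analysis was possible because both libraries belong to a single group. With the length trend removed, the median log2 ratio of the 8 genes was 0.21, against -0.07 as deposited, and Tsc1, Tsc2 and Rictor turned from below to above 0. The median of the 8 genes was 0.01 with TMM and with DESeq2 scaling. Apart from the length trend, the mean log2 ratio of Tsc2 over Tsc1 was 0.65 in TPM and -0.16 in mm9 RPKM. The pathway genes 1.5-fold or more apart numbered 5 with the length trend removed, against 13, and 10 to 17 under the other settings. Splice sites with a second junction numbered 8 at 10% or more, against 15. The cause of these shifts was not tested. All 8 genes passed 1 TPM under every setting tried, 5 TPM and each library alone included, and none was 1.5-fold apart under any. Replicate 1 alone gave 93 pathway genes at 1 TPM and 5 of 10 pairs apart, replicate 2 alone 94 and 4, and the coding share ranged from 88.8% to 89.9%. Of the 101 other pathway genes, 77 were at 1 or more in mm9 RPKM and 81 at 5 TPM or more. Neighbours apart could not be given with 1 library, which has no SD. The 129-nt exon of Tsc2 was included in 76.5% by its upstream and 73.7% by its downstream junction. The mm10 tables as used here list 1 transcript each for Tsc2 and Rictor, and the mm9 values 8 and 2.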
